A study of Mus musculus with 15 samples.

Results

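Activated pancreatic stellate cells of wild-type mice were compared with pancreatic cancer cells across all genes on a 1-colour mouse expression array. The comparison rests on 6 of the 15 arrays of the series: 3 of wild-type stellate cells (PSC WT) and 3 of cancer cells in control medium (KC). Arrays were assigned to it by their labels, not by measured values. The PSC WT were isolated from wild-type mice and grown in culture for 2 weeks, after which they counted as activated, and the KC had spent 24 h in control medium before RNA was taken. The other 9 arrays are 3 of stellate cells from heterozygous mice (PSC HT, cultured for the same time) and 3 each of cancer cells given medium conditioned by PSC WT (KWT) or PSC HT (KHT) for 24 h. These 9 served as a second set of arrays that shares no sample with the first. The labels used here do not give the heterozygous locus, the strain or age of the mice, the cancer cell line, or whether replicates were separate animals or cultures. The p-values thus rest on the spread of these samples alone, and part or all of it may be technical.

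Stellate cells are resident, fibroblast-like cells around the pancreatic acini and ducts. At rest they store vitamin A as retinyl esters, and once activated they lose these stores, take on contractile filaments and secrete collagen-rich matrix, growth factors and cytokines. Pancreatic ductal cancer cells are epithelial: they are joined by E-cadherin junctions and desmosomes, carry keratin filaments, and in tumours surrounded by such stroma they exchange ligands of the Hedgehog, HGF, EGF and other pathways with it. Wild-type stellate cells and cancer cells are thus different cell types, and the comparison describes which transcripts distinguish them in culture.

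Values are log2 signals relative to the 75th percentile of their array, and differences are PSC WT minus KC on that scale ± SE, with n = 3 arrays a group and limma's adjusted p. Levels of different genes are not set against each other, because probes differ in brightness. Arrays correlated at r = 0.994 to 0.996 within PSC WT and at 0.994 within KC, and at 0.781 to 0.794 between them. These are correlations across 21849 genes, which are not independent replicates. Of the spots, 59.5% to 63.8% were well above background on the PSC WT arrays and 55.0% to 58.5% on the KC arrays, and 0 were saturated. Both groups lay on both slides. Of 21924 genes tested, 15650 (71.4%) passed an adjusted p of 0.05. Of these, 7924 (36.1% of the genes tested) were higher in PSC WT and 7726 (35.2%) lower. Scaling to the array median in place of the 75th percentile moved the median of all genes from 0.04 to -0.35 and the split to 5334 higher and 10435 lower. With a difference of at least 2-fold added, 8447 genes passed (38.5%), 4555 higher (20.8%) and 3892 lower (17.8%), and array-median scaling gave 3587 higher and 5816 lower. For 2327 genes (10.6%) the probe was well above background on 3 arrays of 1 group and on 0 of the other: 1631 in PSC WT (7.44%) and 696 in KC (3.17%). The 3 readings of one group all lay above or all below the 3 of the other in 75.5% of the genes tested, 38% with PSC WT above and 37.5% below. A gene present in 1 group alone enters the test through the group in which it is high, so counts over gene lists are descriptions, and its fold is a lower bound, written "at least N-fold". The bound is that of the gene's brightest probe, and other probes of the gene can differ less. A difference is also uncertain where only some arrays of the dim group were above background, which is said beside it. Every count over a list below is to be read beside the shares of all genes tested. These were 36.1% higher, 35.2% lower, 7.44% on PSC WT alone and 3.17% on KC alone. Ranges over several probes are fitted differences, also where a probe was not above background in 1 group.

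The response of the arrays to the spiked-in control RNAs moved with the group. Its slope, log2 signal on log2 amount as the scanner software fitted it, was 0.909 to 0.927 on the PSC WT arrays and 1.05 to 1.06 on the KC arrays. A flatter slope brings bright and dim signals closer together. Genes with a mean level under -4 had a median difference of 0.51, and genes over 2 one of -0.15. After division by the slope these medians were -0.17 and 0.47, and after quantile normalization 0.10 and -0.12. Small differences of very dim or very bright genes therefore change sign with the scaling. Slope and group cannot be told apart in these 6 arrays. None of the 8447 genes called at 2-fold changed sign under either scaling, and 8173 of them stayed called after division by the slope.

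**Figure D1:**
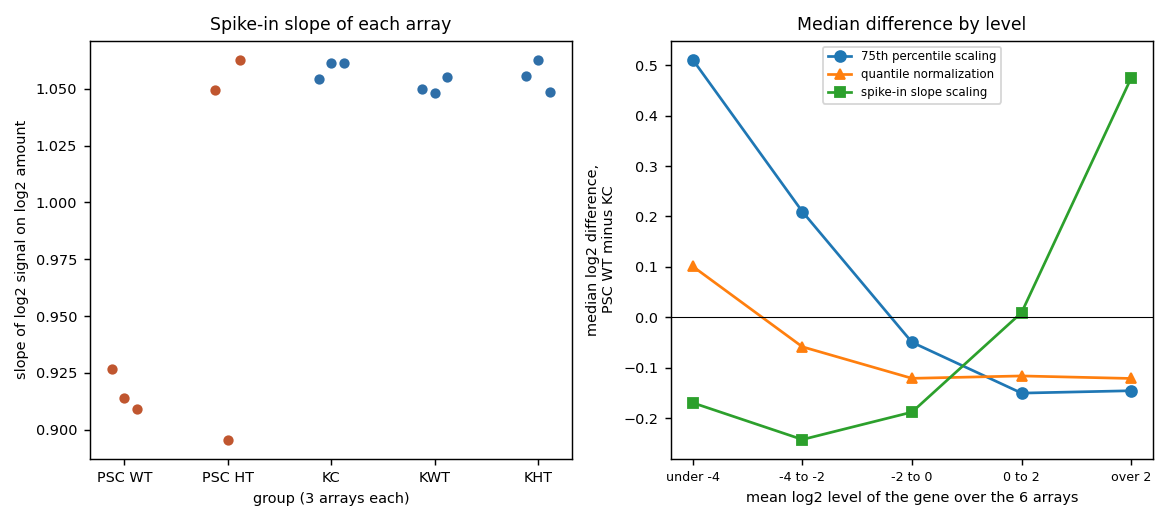
Left, spike-in slope of each of the 15 arrays by group (points, 3 per group): PSC WT arrays lie at 0.909 to 0.927 and KC arrays at 1.05 to 1.06, with PSC HT arrays at 0.896, 1.05 and 1.06. Right, median log2 difference (PSC WT minus KC) of genes binned by their mean level, under 3 scalings; the bin under -4 moves from 0.51 to -0.17 and the bin over 2 from -0.15 to 0.47 between the 75th percentile and the spike-in slope.

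The same contrast was read again in the second set, PSC HT against the mean of KWT and KHT. Of the 4555 genes at least 2-fold higher in PSC WT, 4055 were tested there and 3989 were again called higher and 8 lower. Of the 3892 at least 2-fold lower, 3830 were tested, 3780 were called lower and 4 higher. In this second set 80.4% of 21128 genes passed, 37.8% higher and 42.6% lower in PSC HT, so most genes differed there. Genes present in 1 cell type alone entered this test, too, through the type in which they are high. Their direction there thus followed from the filter, and genes that failed the filter are not in these counts. PSC HT replicates 1 and 3 had slopes of 1.05 and 1.06, like the cancer cell arrays. PSC HT replicate 3 read transcripts of the cancer cells above the other stellate arrays: Hnf4a stood at -1.04 on it and at -7.57 and -7.70 on PSC HT replicates 1 and 2. Without replicate 3, 3974 and 3766 genes were called in the first set's direction. With replicate 1 alone, 3880 and 3734 were, a fit in which the spread comes from the cancer cell arrays and the lone array is assumed to vary like them.

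**Figure D2:**
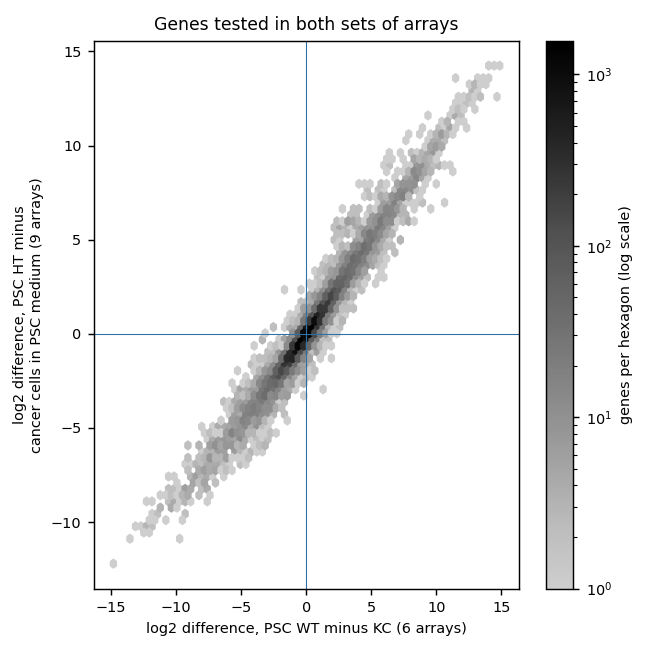
Each gene's log2 difference in PSC WT minus KC (horizontal, 6 arrays) and in PSC HT minus cancer cells in PSC medium (vertical, 9 other arrays), shaded by the number of genes per hexagon on a log scale. The genes follow the diagonal; 3989 of 4055 genes higher and 3780 of 3830 genes lower in the first set were called in the same direction in the second.

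The 15 genes with the largest fitted differences above the cancer cells are described first. In 14 of them 0 KC arrays were above background, so their order by fitted difference is not an order of true size. Meg3, a maternally expressed long non-coding RNA of the Dlk1-Dio3 imprinted region (probe at chr12:110783470-110783529, mm9), read 7.22, 7.05 and 7.19 on the PSC WT arrays and -7.94, -7.78 and -7.43 on the KC arrays. It was at least 6686-fold higher in PSC WT (adjusted p = 1.02e-08), and 0 of the KC arrays were well above background. Serpinf1, a secreted serpin also known as PEDF (chr11:75223568-75223627), read 7.46, 7.06 and 7.21 against -7.63, -7.00 and -7.66, at least 7114-fold higher. Adamts2, the protease that trims the amino-terminal propeptide of procollagen, was at least 4239-fold higher, and Lox, which starts collagen and elastin crosslinks, at least 4100-fold. In all 4 the groups lay far apart, with 0 KC arrays well above background. Over all tested probes the fitted differences were 6.75 to 14.87 for Meg3 and 4.88 to 14.24 for Adamts2. They were 12.30 to 14.68 for Serpinf1 and 11.58 to 14.04 for Lox.

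Among these 15 were the cell surface genes Thy1, the GPI-anchored fibroblast antigen CD90, and Itga11, the alpha chain of a collagen-binding integrin. Thy1 was at least 5832-fold and Itga11 at least 5264-fold higher in PSC WT. Mgp, an inhibitor of calcification, was at least 2691-fold higher, Mfap5, a microfibril protein, at least 2943-fold, and Dcn, the collagen-binding proteoglycan decorin, at least 2342-fold. Ptgis, the prostacyclin synthase, was at least 2138-fold higher, Plxdc2 at least 2740-fold, and the small heat shock protein gene Hspb7 at least 1600-fold. The 3 tested probes of Ptgis gave fitted differences of 2.62 to 13.05, the 2 of Itga11 6.22 to 13.19 and the 2 of Hspb7 8.68 to 12.90. Col1a2, Col3a1 and Col6a3 complete the 15.

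**Figure D3:**
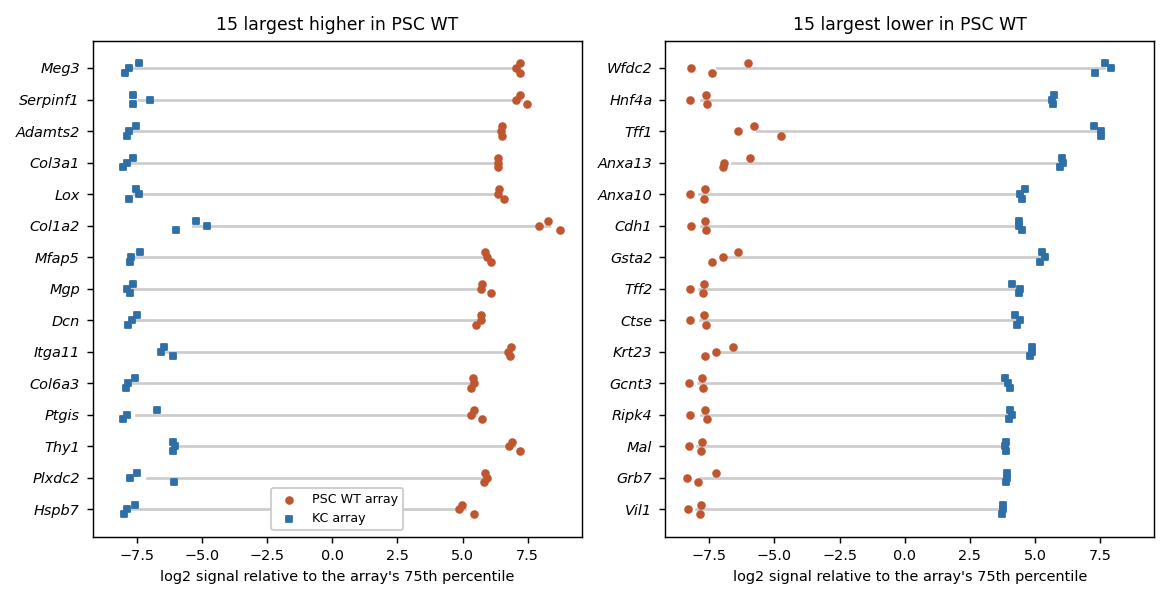
Level of the 15 genes with the largest higher and the 15 with the largest lower difference on each of the 3 PSC WT (circles) and 3 KC (squares) arrays, as log2 signal relative to the array's 75th percentile; grey lines join the group means. Meg3 lies at 7.05 to 7.22 in PSC WT and at -7.94 to -7.43 in KC, and Hnf4a at -8.23 to -7.58 and 5.64 to 5.74; readings near the left edge are mostly not well above background and have no order.

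Of the 23 collagen genes, all tested, 21 were higher in PSC WT and 1 lower, against 36.1% and 35.2% of all genes. Their median difference was 7.37 (7.15 with bounded genes at their bound), and that of all genes 0.04. Col1a1, the alpha 1 chain of type I collagen (chr11:94813075-94813134), read 7.75, 7.21 and 7.55 in PSC WT and -4.35, -4.22 and -4.72 in KC, a difference of 11.94 ± 0.19 (adjusted p = 2.38e-08). Its 4 tested probes gave 2.82 to 14.29, all in this direction. Col1a2, the partner chain, was higher by 13.65 ± 0.34, with 1 of 3 KC arrays above background, so the size of the difference is uncertain. Col3a1, the fibrillar chain of type III collagen, was at least 3851-fold higher and Col6a3, of the beaded type VI filaments, at least 1973-fold. Over 3 tested probes each, Col3a1 gave 6.71 to 14.21 and Col6a3 6.05 to 13.16. Col18a1, the basement membrane collagen from which endostatin is cut, went the other way: it read 2.02, 1.88 and 1.83 in PSC WT and 5.46, 5.15 and 5.06 in KC, lower by 3.31 on the log2 scale (SE 0.13).

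Of 29 proteoglycan, elastic fibre and matricellular genes, 28 were tested, with 25 higher and 2 lower. Prelp, a leucine-rich proteoglycan that anchors basement membranes, was at least 2144-fold higher. Postn, the matricellular protein periostin, was higher by 11.62 ± 0.72, with 1 KC array above background, and its 4 probes gave 7.44 to 13.55. Fbln1, an elastic fibre and basement membrane protein on the list of stellate markers, was lower in PSC WT: 0.85, 0.76 and 0.80 against 2.44, 2.31 and 2.18, with a difference of -1.51 ± 0.10. Mfap4, another microfibril protein, differed by -0.44 ± 0.13 and did not pass without PSC WT replicate 1, PSC WT replicate 2 or KC replicate 2 (limma's adjusted p = 0.057, 0.053 and 0.058). Of 35 matrix protease, inhibitor and crosslinker genes, 33 were tested, with 30 higher and 2 lower. Mmp13, the collagenase 3 gene, was lower in PSC WT by 3.84 on the log2 scale (SE 0.11) and Plat, the tissue plasminogen activator, by 1.87 (SE 0.17). Mmp7 and Mmp9 were not well above background on any of the 6 arrays.

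Contractile and filament genes, which mark activated stellate cells, were higher in 21 of 23 and lower in 1, with a median of 3.24. Cnn1, the actin-binding protein calponin 1, read 8.28, 7.68 and 7.88 in PSC WT and -4.36, -4.81 and -4.82 in KC (12.61 ± 0.20). Myl9, the myosin regulatory light chain, was higher by 10.33 ± 0.17. Des, the muscle intermediate filament desmin that also labels stellate cells, was at least 373.5-fold higher on its brighter probe and higher by 0.99 on the other. Acta2, smooth muscle actin and the standard marker of activation, read 7.23, 7.11 and 7.21 in PSC WT and 3.96, 4.08 and 4.15 in KC on its brightest probe, 3.12 ± 0.09. The other 3 Acta2 probes gave 7.86, 11.48 and 13.31, so the size, not the direction, depends on the probe. Vim, the intermediate filament vimentin, was high in both: 7.23, 6.81 and 6.88 against 6.17, 6.24 and 6.20, a difference of 0.77 ± 0.13 (adjusted p = 0.00155) without overlap of the groups. Scaled to the array median it was 0.38 and did not pass (limma's adjusted p = 0.077). Nes, the filament protein nestin, was lower in PSC WT (-0.74 ± 0.15), but did not pass after division by the spike-in slope (-0.35).

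Of the 25 stellate and fibroblast markers 23 were higher and 1, Fbln1, lower. Pdgfrb, the platelet-derived growth factor receptor beta of mesenchymal cells, read 4.46, 4.43 and 4.31 in PSC WT and was on 0 KC arrays above background, at least 992.1-fold higher. The levels of these markers matched a mesenchymal cell. Of them, 13 were above background on PSC WT arrays alone and entered the test through PSC WT, so their direction followed from the filter. The list holds fibroblast markers as well, so it cannot set stellate cells apart from other fibroblasts. Tcf21, a fibroblast transcription factor, read -1.74, -1.56 and -1.71 in PSC WT and -8.01, -2.18 and -3.21 in KC, and did not pass (adjusted p = 0.12). The genes of the retinoid store were mixed. Of 16 listed, 13 were tested, with 10 higher and 3 lower. Lrat, the enzyme that esterifies retinol in resting stellate cells, was not well above background on any array. Gfap, a filament protein of resting stellate cells, was above background on 2 PSC WT arrays. Aldh1a2, a retinoic acid synthase, was higher by 6.69 ± 0.15. Rbp4, the plasma retinol carrier, read -4.56, -4.56 and -4.22 in PSC WT and 5.79, 5.74 and 5.65 in KC, lower by 10.17 on the log2 scale (SE 0.12).

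Of 29 mesenchymal transcription factors 26 were tested, with 20 higher and 3 lower in PSC WT. Foxf1, a forkhead factor of gut and lung mesenchyme, was at least 186.1-fold higher, and Snai1, the zinc finger repressor of E-cadherin, at least 236.2-fold. Zeb1, another repressor of epithelial genes, read -0.18, 0.11 and 0.00 in PSC WT and -1.29, -1.50 and -1.12 in KC, higher by 1.28 ± 0.13. 3 genes of the list went the other way: Gata4, a zinc finger factor of foregut endoderm and of visceral mesenchyme, by -2.55 ± 0.10, Foxf2 by -1.06 ± 0.10 and Prrx2 by -0.76 ± 0.09. Of 39 Hox genes, which set position along the body axis, 26 were tested, and all 26 were higher (36.1% of all genes). On 23 of them, PSC WT were above background on 3 arrays and KC on 0 (7.44% of all genes). These 23 entered the test through PSC WT alone, so their direction followed from the filter. The other 13, among them Hoxc10 and Hoxd13, were not above background on all arrays of either group. Hoxb7 read 2.92, 2.78 and 2.81 and was at least 334.8-fold higher. Hoxb9 was at least 178.3-fold, Hoxb2 at least 170.4-fold and Hoxb4 at least 166.8-fold higher.

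Of 29 imprinted genes, which are expressed from 1 parental copy, 22 were higher and 4 lower (36.1% and 35.2% of all genes). On PSC WT arrays alone 17 were above background, against 7.44% of all genes. Their median was 3.98, and 1.71 with bounded genes at their bound. Sgce, epsilon-sarcoglycan, was at least 865.9-fold higher and Ndn, the growth suppressor necdin, at least 564.5-fold. H19, a non-coding RNA, read -0.23, -0.22 and -0.40 in PSC WT and was at least 38.62-fold higher. Its neighbour Igf2, the growth factor, was dim in PSC WT (-3.91, -3.87 and -3.74) and at least 3.275-fold higher. Phlda2, a pleckstrin domain protein that restrains placental growth, was above background in KC alone, at least 37.83-fold lower in PSC WT.

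**Figure D4:**
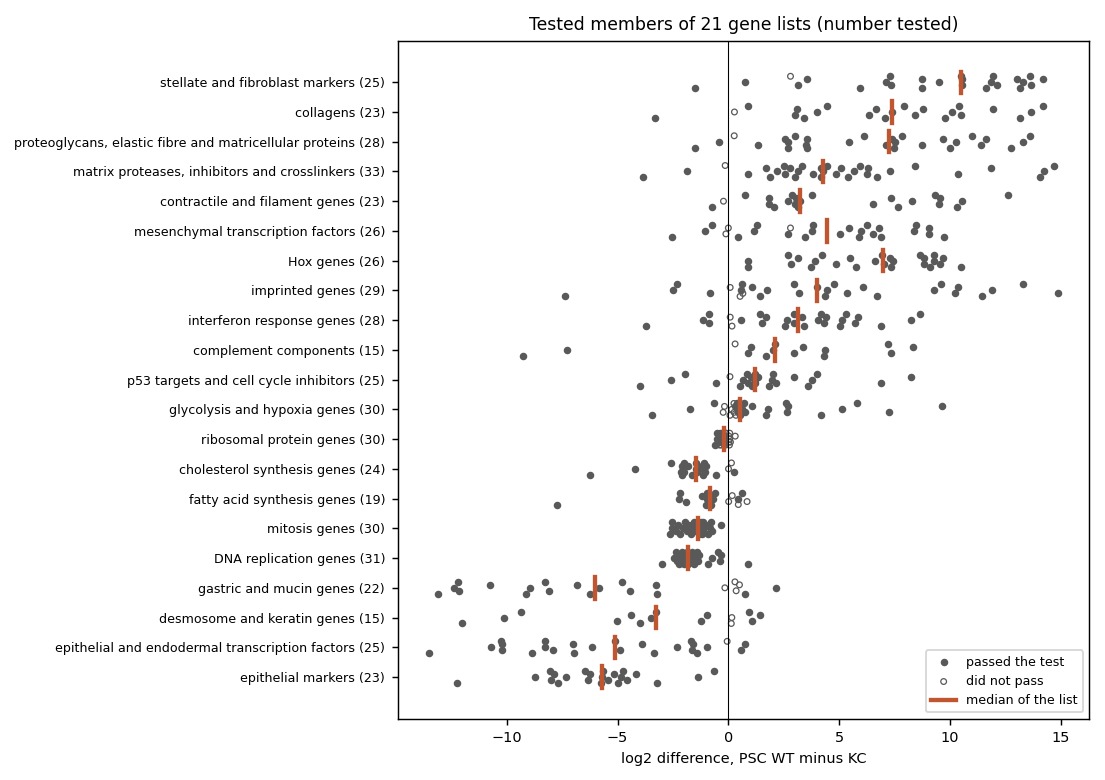
Log2 difference (PSC WT minus KC) of every tested member of 21 gene lists, with the number tested in brackets; filled points passed an adjusted p of 0.05, open points did not, and orange bars mark list medians. Medians run from 10.50 for stellate and fibroblast markers (8.75 with bounded genes at their bound) to -6.03 for gastric and mucin genes (-5.41), with epithelial markers at -5.72 and ribosomal protein genes at -0.18.

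The 15 genes with the largest fitted differences above the stellate cells were above background on 0 PSC WT arrays in all but Tff1. Wfdc2, a secreted epithelial protein also known as HE4 (chr2:164393935-164393994), read 7.29, 7.91 and 7.70 in KC and -7.40, -8.20 and -6.00 in PSC WT. It was at least 10449-fold higher in KC (adjusted p = 7.3e-07). Hnf4a, the hepatocyte and gut nuclear receptor (chr2:163398548-163398607), read 5.68, 5.64 and 5.74 in KC and was at least 2704-fold higher. Its 2 tested probes gave fitted differences of -13.50 and -5.78. Tff1, the gastric trefoil peptide, read 7.53, 7.55 and 7.28 in KC and -4.76, -6.40 and -5.79 in PSC WT, a difference of -13.10 ± 0.39 with 1 PSC WT array above background. Anxa13, an epithelial annexin, was at least 3400-fold higher in KC, Gsta2, a glutathione transferase, at least 2046-fold, Krt23 at least 1514-fold, Anxa10, a gastric annexin, at least 1196-fold, and Vil1, the actin bundler of brush borders, at least 703.3-fold. The kinase gene Ripk4 was at least 872.6-fold, the mucin glycosyltransferase gene Gcnt3 at least 819.3-fold, the adaptor gene Grb7 at least 790.9-fold and Mal, a membrane raft protein, at least 775.3-fold higher in KC. Cdh1, Tff2 and Ctse complete these 15.

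All 23 tested epithelial markers of 25 listed were lower in PSC WT, with a median of -5.72. The other 2 were not above background on all arrays of a group. Cdh1, E-cadherin of the adherens junction (chr8:109193812-109193871), read 4.49, 4.40 and 4.39 in KC and -7.61, -8.22 and -7.67 in PSC WT, and was at least 1130-fold higher in KC. Epcam, the epithelial adhesion molecule, read 0.93, 0.91 and 0.71 in KC and was at least 94.83-fold higher, with 0 PSC WT arrays above background. The simple keratins were above background on every PSC WT array as well. Krt19 read -0.95, -0.72 and -0.68 against 6.96, 6.90 and 6.91 (-7.70 ± 0.10), and Krt8 read 1.77, 1.72 and 1.73 against 7.44, 7.48 and 7.27 (-5.66 ± 0.09). Cldn7, a tight junction claudin, differed by -7.87 ± 0.08, and Ocln, occludin, was at least 55.11-fold higher in KC. The levels of these markers matched the epithelial label of the cancer cells. Of them, 5 were above background on KC arrays alone and entered the test through KC, so their direction followed from the filter.

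The promoters of 4 of these markers are shown because they hold a short motif that most of the markers with a promoter in the table have. Within 250 bases before the RefSeq start (GRCm38.p6), the E-box CAGGTG (either strand, thus also CACCTG), the sequence bound by Snail and Zeb repressors, occurs in 11 of the 15 epithelial markers with a promoter in the table (73.3%). It occurs in 19.4% of all 27025 genes there, in 24.4% of the genes at least 2-fold lower and in 18.5% of those at least 2-fold higher in PSC WT. The Grainyhead motif AACCNGTT (either strand) occurs in 2 of the 15, Rab25 and Cgn, and in 2% of all genes. Of the genes called at 2-fold, 2516 of 3892 and 2728 of 4555 had a promoter. A match of letters is a description, not a binding site. Below, the 200 bases before the start are given 5′ to 3′ with the matches in capitals, for Epcam (chr17:87635779-87635978, plus strand), Cldn4 (chr5:134946935-134947134, minus strand), Cldn7 (chr11:69965221-69965420, plus strand, the second of its 2 starts listed) and Rab25 (chr3:88548280-88548479, minus strand). In Rab25 the first run of capitals is the Grainyhead motif and the other two are E-boxes.
Epcam: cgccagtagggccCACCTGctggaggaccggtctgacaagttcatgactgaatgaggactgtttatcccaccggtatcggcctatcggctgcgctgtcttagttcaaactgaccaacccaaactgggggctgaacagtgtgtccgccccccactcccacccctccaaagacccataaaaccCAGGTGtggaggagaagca
Cldn4: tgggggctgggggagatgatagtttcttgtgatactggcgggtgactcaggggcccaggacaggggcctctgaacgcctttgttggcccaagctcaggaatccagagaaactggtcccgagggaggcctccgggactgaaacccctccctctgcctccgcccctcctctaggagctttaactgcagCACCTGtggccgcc
Cldn7: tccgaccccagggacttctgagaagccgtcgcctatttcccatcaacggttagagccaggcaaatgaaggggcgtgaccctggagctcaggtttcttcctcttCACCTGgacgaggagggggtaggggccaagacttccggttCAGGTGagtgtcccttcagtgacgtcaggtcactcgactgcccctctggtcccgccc
Rab25: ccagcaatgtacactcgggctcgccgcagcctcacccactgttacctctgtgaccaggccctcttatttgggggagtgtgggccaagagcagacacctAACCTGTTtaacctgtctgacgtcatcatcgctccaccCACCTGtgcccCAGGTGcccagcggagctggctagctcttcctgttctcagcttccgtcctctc
Their 4 genes were all lower in PSC WT: Epcam at least 94.83-fold, Cldn4 at least 36.99-fold, Cldn7 by 7.87 on the log2 scale and Rab25, a small GTPase of epithelial recycling, at least 1.491-fold.

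The CArG box, the element of serum response factor in muscle and cytoskeletal genes, was searched in the same windows. It occurs in 3 of 20 contractile and filament genes with a promoter (15%), namely Actc1, Cnn2 and Myl9, and in 1.62% of all genes. It occurs in 2.46% of the genes at least 2-fold higher and 1.75% of those at least 2-fold lower in PSC WT. None of the 19 collagen promoters and none of the 15 epithelial ones holds it in this window. The 200 bases before the start of Myl9 (chr2:156775264-156775463, plus strand) and Cnn2 (chr10:79988400-79988599, plus strand) show it in capitals.
Myl9: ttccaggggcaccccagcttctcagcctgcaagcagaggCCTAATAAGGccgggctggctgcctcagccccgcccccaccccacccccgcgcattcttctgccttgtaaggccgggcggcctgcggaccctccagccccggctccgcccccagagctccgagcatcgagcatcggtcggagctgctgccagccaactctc
Cnn2: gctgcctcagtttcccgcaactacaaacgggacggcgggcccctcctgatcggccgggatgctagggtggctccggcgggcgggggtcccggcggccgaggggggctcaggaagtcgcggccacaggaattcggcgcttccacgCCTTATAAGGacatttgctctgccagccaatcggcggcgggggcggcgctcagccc
Myl9 was higher in PSC WT by 10.33 ± 0.17 and Cnn2, the calponin of non-muscle cells, by 2.70 ± 0.10.

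Of 30 epithelial and endodermal transcription factors 25 were tested, with 22 lower and 2 higher in PSC WT. Pdx1, which marks pancreatic and duodenal endoderm, read 2.94, 2.91 and 2.99 in KC and was at least 406-fold higher there. Grhl2, a Grainyhead factor that maintains epithelial junction genes, was dim in KC (-4.75, -4.62 and -5.08) and at least 1.862-fold higher. Gata6 (0.75 ± 0.08) and Trp63 (0.59 ± 0.13) were higher in PSC WT, Trp63 not under array-median scaling (0.20) or with the median over its probes (0.19). Of the gastric and mucin genes 22 of 25 were tested, with 16 lower and 2 higher. Tff2, the second gastric trefoil peptide, was at least 1039-fold and Ctse, the gastric protease cathepsin E, at least 1046-fold higher in KC.

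Adhesion genes were mixed within each family. Of 15 desmosome and keratin genes 10 were lower and 3 higher in PSC WT. Dsp, the desmosomal plaque protein desmoplakin, was at least 446.6-fold and Dsg2, a desmosomal cadherin, at least 263.4-fold higher in KC. The 2 tested probes of Dsg2 gave -9.38 and -4.73. Krt80 was higher by 1.41 ± 0.10 on its brighter probe and lower by 2.23 on its other probe, so its direction depends on the probe. Of 32 integrin, laminin and syndecan genes 31 were tested, with 17 higher and 10 lower. Sdc2, a heparan sulfate proteoglycan, was at least 419.7-fold and Itga8 at least 78.05-fold higher in PSC WT. Lamb3, a chain of an epithelial laminin, was lower by 7.34 on the log2 scale (SE 0.17), with 2 PSC WT arrays above background, Itga2 at least 45.04-fold and Itgb6, an epithelial activator of latent TGF-beta, at least 28.71-fold. Among 10 cadherins tested 5 were higher and 5 lower, against 36.1% and 35.2% of all genes. Cdh2, N-cadherin, was higher by 0.57 ± 0.12, below the 2-fold limit, and did not pass under array-median scaling (0.18) or with the median over its probes (0.63, limma's adjusted p = 0.096).

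Splicing regulators known for cell-type programmes were 7 higher and 7 lower of 16 tested, shares not far from the 36.1% and 35.2% of all genes, so the counts say nothing of the list. Esrp1, which directs epithelial splice forms, read 0.29, 0.29 and 0.55 in KC and -3.93, -3.72 and -3.41 in PSC WT (-4.06 ± 0.16). Rbm47, another epithelial regulator, was lower by 5.15 on the log2 scale (SE 0.17). Rbms3, an RNA-binding protein of mesenchymal cells, was at least 481.6-fold higher in PSC WT, and Rbfox1 at least 24.14-fold.

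The ligand and receptor lists are described pathway by pathway. The 3 Hedgehog ligands were all lower in PSC WT. Shh read -0.08, -0.11 and -0.17 in KC and was at least 48.42-fold higher there. Ihh read 1.77, 1.94 and 1.50 in KC and -5.54, -5.51 and -5.36 in PSC WT (-7.21 ± 0.13, with 2 PSC WT arrays above background), and Dhh differed by -7.97 ± 0.09. Of the 10 tested receptors, effectors and targets of the pathway 8 were higher and 2 lower in PSC WT. Boc, a co-receptor of Hedgehog, was at least 45.46-fold and Gli2, its transcription factor, at least 9.819-fold higher. The pathway's own targets were not alike. Gli1 read -3.41, -3.64 and -3.72 against -4.34, -3.97 and -4.81 (0.79 ± 0.22, adjusted p = 0.0158), and did not pass under array-median scaling (0.40), quantile normalization (0.44), division by the spike-in slope (0.22) or without PSC WT replicate 1 (0.70). Ptch1, the receptor that Hedgehog signals induce, read -4.88, -4.53 and -4.23 in PSC WT and -1.48, -1.80 and -2.33 in KC, lower by 2.68 on the log2 scale (SE 0.26) and by 0.15 to 2.68 over its 3 probes.

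Of the HGF, IGF and FGF ligand list 14 of 15 were tested, with 11 higher and 3 lower. Hgf, the ligand of Met, read -0.95, -0.72 and -0.90 in PSC WT and was at least 25.89-fold higher. Met, its receptor on epithelial cells, was lower in PSC WT: 0.66, 0.80 and 0.52 against 1.93, 1.87 and 1.80 (-1.21 ± 0.10, adjusted p = 5.22e-05). Gas6, the ligand of the Axl receptor family, was higher by 6.85 ± 0.09, while Axl itself, at 0.20 ± 0.14, did not pass. Fgf2 was at least 23.44-fold higher, and Fgfbp1, which releases FGFs from matrix, was at least 144.1-fold lower. Fgfr1 was higher by 8.30 ± 0.10 and Fgfr4, with 2 PSC WT arrays above background, lower by 4.73 (SE 0.25). Igf1 was higher by 0.83 ± 0.17 on its brightest probe and by 4.62 and 11.08 on the other two. EGF ligands lay mostly with the cancer cells, 6 lower and 2 higher of 9 tested. Areg, amphiregulin, read 2.06, 1.85 and 1.41 in KC and was at least 180-fold higher there. Of the receptors, Erbb3 was at least 216.6-fold higher in KC and Egfr higher in PSC WT by 1.26 ± 0.09.

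Of 13 tested Wnt ligands and R-spondins 8 were higher and 3 lower in PSC WT. Rspo1 and Rspo3, which amplify Wnt signals through Lgr receptors, were at least 423.7-fold and 74.16-fold higher. The 2 tested probes of Rspo3 gave 3.14 and 8.41. Wnt7a read 3.12, 3.02 and 2.99 in KC and was at least 433-fold higher there, and Wnt10a at least 17.07-fold. Of 20 tested Wnt receptors and antagonists 14 were higher and 4 lower, with the secreted antagonist Dkk3 higher by 11.30 ± 0.46 (1 KC array above background) and the R-spondin receptor Lgr4 lower by 2.23 (SE 0.32). Of 20 TGF-beta and BMP ligands and antagonists 15 were higher and 2 lower. Inhbb, an activin subunit, was at least 394-fold and Grem1, a BMP antagonist, at least 70.45-fold higher in PSC WT. Bmp7 was at least 6.096-fold higher in KC. Tgfb1 differed by -0.46 ± 0.14, and it did not pass without PSC WT replicate 2 or 3 or KC replicate 1 or 3 (-0.47, -0.41, -0.37 and -0.42). Pdgfb, a ligand of Pdgfrb, was lower in PSC WT by 5.05 on the log2 scale (SE 0.09), whereas Pdgfa was higher by 1.65 ± 0.13 and its receptor Pdgfra at least 122-fold.

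**Figure D5:**
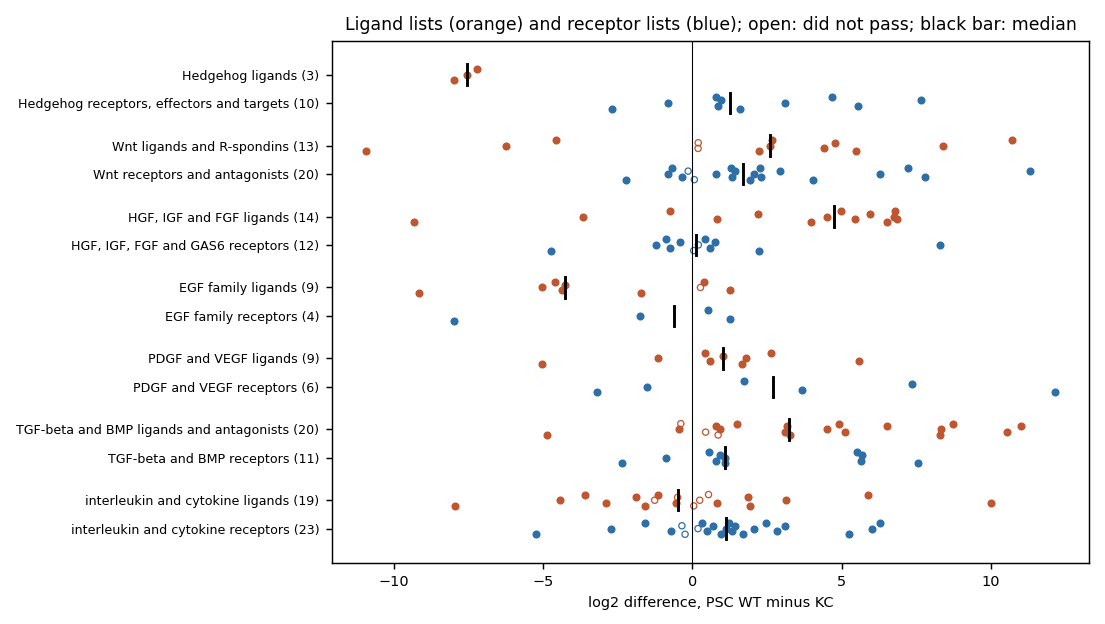
Log2 difference (PSC WT minus KC) of tested members of 7 pairs of ligand (orange) and receptor (blue) lists, with the number tested in brackets; open points did not pass and black bars are medians. The 3 Hedgehog ligands lie between -7.97 and -7.21 and 8 of 10 receptors, effectors and targets above 0; EGF ligands have a median of -4.27 (-3.07 with bounded genes at their bound) and HGF, IGF and FGF ligands one of 4.75 (2.78).

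Of 30 chemokine ligands 22 were tested, with 13 higher and 7 lower in PSC WT. Cxcl12, the stromal ligand of Cxcr4, read 4.53, 4.48 and 4.53 in PSC WT and was at least 1072-fold higher. Ccl7, a monocyte attractant, was at least 402.7-fold higher, Ccl9 at least 45.84-fold and Ccl2 higher by 4.94 ± 0.10. Cxcl5, a neutrophil attractant, read 5.06, 5.20 and 4.93 in KC and -6.17, -5.10 and -5.56 in PSC WT (-10.68 ± 0.26, with 1 PSC WT array above background). Cxcl3 was at least 4.764-fold higher in KC, and Ccl20 and Cxcl16 differed by -3.55 ± 0.22 and -3.38 ± 0.09. Of 19 tested cytokine ligands 6 were higher and 8 lower, near the 36.1% and 35.2% of all genes. Il6 read 2.21, 2.41 and 2.39 in PSC WT and was at least 237-fold higher, and Csf1, the macrophage growth factor, was higher by 5.89 ± 0.12. Il1rn, the interleukin 1 receptor antagonist, was lower by 7.95 on the log2 scale (SE 0.12) and Csf2 at least 6.069-fold. Of 23 receptors tested 16 were higher and 4 lower, Osmr, the oncostatin M receptor, by 5.24 ± 0.11.

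Of 15 tested complement genes 12 were higher and 2 lower in PSC WT. Serping1, the C1 inhibitor, was higher by 8.31 ± 0.53 with 1 KC array above background, and C3, the central component, by 4.30 ± 0.12. Cfb, factor B of the alternative pathway, read 4.85, 4.74 and 4.66 in KC and -4.90, -4.22 and -4.45 in PSC WT (-9.27 ± 0.18), and Cfi, factor I, differed by -7.30 ± 0.09 with 1 PSC WT array above background. Of 28 tested interferon response genes 22 were higher and 4 lower. Oas1a, an RNA sensor of the antiviral response, was at least 79.8-fold and Tap1, the peptide transporter of antigen presentation, at least 64.92-fold higher. Oasl1 was lower by 3.73 on the log2 scale (SE 0.16). Antigen-presenting H2-K1 and H2-D1 were lower by 0.87 and 0.89 (SE 0.09 each).

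Markers of other cell types were also read, and their direction differed between the lists and within them. Of 18 macrophage and leukocyte markers 17 were tested, 14 higher and 2 lower (36.1% and 35.2% of all genes). On PSC WT arrays alone 10 were above background, against 7.44% of all genes, and these entered the test through PSC WT. Lyz2, the lysozyme of macrophages, read 4.28, 3.39 and 3.20 and was at least 578-fold higher, and Tyrobp, a myeloid adaptor, at least 20.58-fold. Their summed signal, as log2 over the list, was 4.23 to 5.16 on the PSC WT arrays and 3.90 to 3.97 on the KC arrays, which hold Cd14 and Mrc1. Cd14 differed by -4.21 ± 0.08 and Mrc1 by -5.02 ± 0.36. The part of macrophages in the chemokine, complement and interferon results was not tested. Of 10 mesothelial markers 9 were tested, with 7 higher and 2 lower. Upk1b read 3.84, 4.02 and 3.96 and was at least 720.5-fold higher, and Wt1 at least 558.7-fold. Msln, mesothelin, which pancreatic cancer cells also express, was lower in PSC WT by 4.84 (SE 0.20), as was Krt19. The summed signal of the list was 5.49 to 5.75 in PSC WT and 8.11 to 8.36 in KC. A summed signal is led by the brightest members of a list. The median level of the mesothelial list went the other way, 1.92 to 2.21 in PSC WT and -6.76 to -6.11 in KC.

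Of 12 endothelial markers 9 were tested, with 7 higher and 1, Egfl7, lower (-2.19). The summed signal was 3.24 to 3.31 in PSC WT and 3.87 to 4.01 in KC. The median level of the list went the other way, -2.70 to -2.56 in PSC WT and -6.36 to -6.13 in KC. Emcn was at least 14.79-fold higher, while Tek and Tie1 were not above background on any of the 6 arrays. Among 9 Schwann cell and nerve markers 6 were tested, with 1 higher (Ngfr, at least 1.286-fold, not passed after division by the slope) and 3 lower. The lower ones include Erbb3, described above among the EGF receptors. The summed signal was 2.06 to 2.39 in PSC WT and 3.64 to 3.66 in KC, and the median level -5.69 to -5.25 and -5.74 to -5.34. Foxd3 was not above background on any of the 6 arrays. Of 15 acinar and islet markers 5 were tested and 1, Cela1, was higher (2.11 ± 0.09), with a summed signal of 1.43 to 1.62 in PSC WT and -0.13 to -0.04 in KC. Of 8 T and B cell markers 3 were tested and 0 passed. The summed signals were 1.16 to 1.49 and 0.93 to 1.42. Cd8a and Cd79b were not above background. In such cultures fewer cells of a type and less RNA per cell cannot be told apart. The part of these cells in any list was not tested.

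Genes of the cell cycle were lower in PSC WT by smaller amounts. Of 31 DNA replication genes 30 were lower and 1 higher, with a median of -1.81. Mcm3, a subunit of the replicative helicase, read 1.99, 1.90 and 1.93 in PSC WT and 4.16, 4.25 and 4.35 in KC (-2.31 ± 0.09), and Gins1, another part of that helicase, differed by -3.01 ± 0.09. Rrm1, the large subunit of ribonucleotide reductase, was the one higher gene (0.87 ± 0.09). All 30 mitosis genes were lower, with a median of -1.36, Nusap1, a spindle microtubule protein, by 2.64 (SE 0.11). Of 25 tested p53 targets and cell cycle inhibitors 20 were higher and 4 lower. Cdkn1a, the p21 inhibitor of cyclin-dependent kinases, read 4.55, 4.21 and 4.20 against -2.64, -2.64 and -2.49 (6.91 ± 0.12), and Eda2r, a p53 target receptor, was at least 66.3-fold higher. Cdkn2a, which encodes p16 and p19ARF, was lower in PSC WT: 3.75, 3.55 and 3.37 against 6.21, 6.27 and 6.01 (-2.61 ± 0.13). Trp53 itself read 0.83, 0.24 and 0.32 against 1.23, 0.91 and 0.93 (-0.56 ± 0.18, adjusted p = 0.0292) and is not among the 2-fold differences. It did not pass without PSC WT replicate 2 or 3 or KC replicate 1 or 3 (-0.45, -0.49, -0.46 and -0.61), nor after division by the slope (-0.47). Fas, a death receptor, was lower by 4.002 on its brightest probe and higher by 5.56 and 5.58 on the other two, so its direction depends on the probe.

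Of 24 cholesterol synthesis genes 21 were lower in PSC WT and 1 higher, with a median of -1.46. Tm7sf2, a sterol reductase, differed by -4.21 ± 0.09. Of 19 tested fatty acid synthesis genes 13 were lower and 2 higher, with a median of -0.83 that moved to -0.24 after division by the spike-in slope. Fasn, the synthase itself, differed by -1.20 ± 0.08. Of 30 glycolysis and hypoxia genes 20 were higher and 3 lower, with a median of 0.54, or 1.33 after division by the slope. Ldhb, a lactate dehydrogenase subunit, was at least 541.8-fold higher, Adm, adrenomedullin, higher by 7.23 ± 0.09 and Slc2a3, a glucose transporter, at least 40.18-fold. Aldoc, an aldolase, was lower by 3.45 (SE 0.13). Of 23 tested detoxification genes 10 were higher and 11 lower, against 36.1% and 35.2% of all genes, with a median of -0.23. Gstm2 was higher by 5.01 ± 0.13 and Gsta4 lower by 4.97 (SE 0.10).

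Genes often used as references differed little on the main scale, and their values move with the slope. Actb, cytoplasmic actin, read 8.56, 8.01 and 8.26 in PSC WT and 8.01, 8.13 and 7.79 in KC (0.30 ± 0.17, adjusted p = 0.147), and 1.50 after division by the slope. Gapdh, read on 2 PSC WT arrays because its spots on replicate 3 were marked as outliers, differed by 0.26 ± 0.22, and by 1.32 after that division. Of 30 ribosomal protein genes 7 were lower and 0 higher (median -0.18; 0.87 after division by the slope), so no direction is given for them. Xist, the RNA of the inactive X chromosome, was above background on all 6 arrays and overlapped between the groups (-0.01 ± 0.25, adjusted p = 0.985), and the Y-linked Ddx3y, Uty and Eif2s3y were above background on none. Kdm5d, another Y-linked gene, was above background on all 6 (0.52 ± 0.12) on its brightest probe, but did not pass under array-median scaling (0.13), and its median over probes was -0.17.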

How the data were processed

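Total RNA of 15 samples was read as Cy3 intensity on 1-colour arrays. Per the file headers, the authors extracted the deposited intensity with Feature Extraction 10.7.3.1: it is background subtracted within the array and not scaled between arrays. Probe positions are those of the files, build mm9. The deposited table of processed values was not used, because it was normalized within each cell type.

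Here log2 of the intensity minus the array's 75th percentile (913 to 1428 for PSC WT, 1166 to 1314 for KC) was used. Control and outlier spots were left out, repeated spots were averaged (59305 spots, 56605 probes), and the probe brightest over all 15 arrays stood for its gene. RefSeq names (GRCm38.p6) were given by accession to 32994 probes, by symbol to 10224 and by synonym to 520, while 12867 stayed under their original name, which made 37008 names in all. The test took in each gene whose probe exceeded background clearly on every array of PSC WT or of KC. "At least N-fold" compares the brighter group's mean with the dim group's mean of, per array, the higher of the lowest signal well above background and the probe's own. Differences were fitted with limma 3.58.1 (lmFit, eBayes) in R 4.3.3 on the 6 arrays, with Benjamini-Hochberg adjustment over all genes tested and a threshold of 0.05. The second set was fitted alike on 9 arrays. The number of arrays limits the precision. The procedure was tested on simulated data in which few genes were changed, unlike in these arrays. It called 11.9% of 67 changes of 0.5 log2 units, 64.2% of 67 changes of 1 unit and 90.9% of 66 changes of 2 units. Of 21688 unchanged genes 7 were called. Other software was jsonlite 2.0.0 and data.table (1.17.8) in R, and matplotlib 3.10.9, pandas 2.3.3 and numpy 2.4.6 under Python 3.11.15.

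The members and gene lists were chosen with earlier results of these data known. Named are the 15 largest differences in each direction whose groups do not overlap, up to 4 members per list and direction, 25 genes fixed by name, and the 5 genes with the clearest opposite probes; clone and predicted names were left out. A few others, and list members that did not pass or are on neither group, are named after their values were seen. Of 405 list genes with several tested probes, 12 had probes called in opposite directions and 97 had probes more than 2 log2 units apart. Replicate numbers did not pair the samples: residuals of PSC WT and KC arrays of the same number correlated at -0.12 to -0.08. Alternatives changed background correction, scaling, filter, probe per gene, blocks, variance model, arrays and threshold.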

Additional observations from a re-analysis of the deposited data

How the results depend on the processing

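The count of genes that differ between PSC WT and KC (15650) lay between 12154 (only probes with a RefSeq accession) and 16567 (all 15 arrays in the fit) under the alternatives run, and between 14140 and 15307 with 1 array left out. The count at 2-fold (8447) fell to 5396 when a gene had to be well above background on all 6 arrays, which leaves out every gene present in 1 group alone. It lay between 6181 (limma's treat against 2-fold) and 9452 (no filter) otherwise, and between 8341 and 8671 with 1 array left out. The second set's count (16995) lay between 12899 and 17989, and at 14842 without PSC HT replicates 2 and 3. The replicate number as a block gave 14357 genes, and 8444 at 2-fold, and whether the numbers pair the samples is not known. None of the 8447 genes changed sign under quantile normalization, division by the slope, normexp background, the slide as a block or left-out arrays. The filters, the variance model, the replicate block and the fit of all 15 arrays leave the difference itself as good as unchanged. Array-median scaling shifts all differences alike, by less than the 2-fold limit. A change of sign was thus not possible under these, and the strictest filter kept only 5388 of the genes. With the median over probes 154 genes changed sign, and with accession probes 24 of 6463. The 33 genes with opposite probes became 16 under normexp background. Division by the spike-in slope, the exclusion of PSC HT replicates 2 and 3, and the scalings of the count of opposite probes were chosen after seeing the data.

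Single genes changed sign as follows, and the cause was not tested beyond the change of probe. With the median over probes Fas read 1.48, Kdm5d -0.17 and Krt80 -1.19, and with accession probes Fas read 5.56. Scaled to the array median Actb read -0.086 and Gapdh -0.087, and with 1 array left out Gapdh read -0.078 (without PSC WT replicate 1) to 0.59 (without PSC WT replicate 2). Xist read 0.022 under normexp background, 0.0045 within slide 2, and -0.25 (without KC replicate 3) to 0.17 (without PSC WT replicate 1) with 1 array left out. Signal over background limits the genes present in 1 group alone to lower bounds.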

Other observations

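The shares of higher and lower genes varied between chromosomes. This was not tested, the chromosomes named were picked by their values, and neighbouring genes are not independent. On chromosome 19, 360 of 721 genes tested (49.9%) were lower in PSC WT and 185 (25.7%) higher, with a median of -0.34, against 35.2% and 36.1% of all genes. Chromosome 2 had 45.6% lower (median -0.25) and chromosome 17 had 43.5% lower (median -0.17). The medians kept their sign after division by the spike-in slope (-0.28, -0.26 and -0.17) and in the second set (-0.41, -0.33 and -0.26). The largest shares of higher genes were 42.5% on chromosome 16, 41.2% on chromosome 18 and 40.7% on chromosome 6. In windows of 30 neighbouring tested genes, the lowest median was -1.61, from Ide to Pdlim1 on chromosome 19, with 22 lower and 1 higher (-1.86 in the second set). Genomic copy number of these cells was not measured here.

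In the other direction, a window of 30 on chromosome 12 that ends at Dio3os, in the Dlk1-Dio3 imprinted region, had a median of 4.62 with 22 higher and 3 lower. Many of its members are unnamed probes of overlapping intervals, so they are not independent. A window from Ttll6 to Cdk5rap3 on chromosome 11, which spans the Hoxb genes, had a median of 2.53 with 24 higher and 2 lower. One from Hoxa2 to Fkbp14 on chromosome 6 had 20 higher and 2 lower. Both hold Hox genes that are described above, so they are not separate observations. These windows were chosen for their medians and carry no test.

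Of 5644 genes with 2 or more accession-matched probes tested, 33 had probes called at least 2-fold in opposite directions. Myh14, a non-muscle myosin heavy chain, differed by -4.74 ± 0.11 on one probe. On another, matched to a different RefSeq transcript, its mean was -2.46 in PSC WT and 0 KC arrays were above background. Xaf1, an interferon-induced gene, had a mean of -0.10 in PSC WT and -5.08 in KC (2 KC arrays above background) on one probe. On another probe matched to the same transcript its mean was -2.33 in KC and 0 PSC WT arrays were above background. Pik3cd, a phosphoinositide 3-kinase subunit, differed by 3.31 ± 0.12 and 2.62 ± 0.30 on probes above background on all 6 arrays and by -3.19 ± 0.18 on another such probe. Rgs3, a regulator of G protein signalling, read 2.65 to 2.72 on 3 probes and -2.01 ± 0.13 on another, and all were above background on all 6 arrays. Slc4a9, an anion exchanger, differed by 1.72 ± 0.13 on one probe, and on another its mean was -1.76 in KC with 0 PSC WT arrays above background. Whether these are transcript forms or probes that read other sequences was not tested.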
